A study of Mus musculus with 4 samples.

Results

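Cholesterol is built from lanosterol by a chain of enzymes in the endoplasmic reticulum that strip methyl groups from the sterol, reduce it and move its double bonds. The genes of these enzymes are known targets of SREBP2, a transcription factor that stays bound to the membrane while sterols are plentiful and is cut free when they run low. INSIG proteins hold the SREBP escort SCAP in the membrane when sterols are present, so that the product of the pathway limits its own synthesis; the same factor also governs the uptake of LDL by liver cells.

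The expression values described here are those of 7 mouse genes, chosen by name as the probe sets of the array that carry exactly 1 gene symbol equal to Cyp51, Msmo1, Nsdhl, Hsd17b7, Dhcr7, Insig1 or Srebf2. They are 7 of 18194 named genes, and 14 probe sets match them. The 5 written first are enzymes after lanosterol, and the last 2 are control genes of the pathway. None of the 7 encodes a receptor or adaptor of LDL uptake, so uptake is touched only through its regulators. The series crossed 2 treatments in mice of 10 months of age: diethylnitrosamine (DEN), a chemical that starts liver tumours, and feeding of cholic acid (CA), a bile acid made in the liver, at 0.2% of the food. The first pool had control diet and no DEN, the next CA diet and no DEN, and the other two came from mice given DEN, on control diet or on CA diet. Each group was measured on 1 array with RNA of livers pooled from 3 to 5 mice. The sources used here do not give strain, sex, DEN dose, length of feeding or the share of tumour tissue in each pool.

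With 1 array per group there is no replicate, so no difference was tested and no p-value exists; group, pool and array batch cannot be told apart, and the number of arrays limits the precision. A level is an RMA log2 expression value, a difference is that of 2 such levels, and a gene is called different from 2-fold on, a log2 difference of 1. A gene is called expressed with a mean of at least 4.86 over the arrays, the median over all probe sets, which 11651 genes reached. As a technical scale, 18 hybridization control probe sets differed by at most 0.30 between the diets without DEN and by at most 0.27 after DEN. The hepatocyte genes Alb and Ttr stood between 14.56 and 14.82 on all 4 arrays, whose labelled tissue is liver. Other hepatocyte markers varied more. From control diet to DEN with CA diet, Hpd went from 13.46 to 12.56 and Apoa1 from 14.35 to 14.58.

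All 7 members have an entry among RefSeq promoter sequences (GRCm38.p6), with 3 start sites for Dhcr7 and 1 for each other gene. The 250 bases before the start site are shown for the most strongly lower enzyme, Msmo1, for Cyp51, and for both control genes, so that the motifs named below can be seen in place. Sequences run 5′ to 3′ on the gene's strand. Capitals mark the searched motifs on either strand.

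Cyp51: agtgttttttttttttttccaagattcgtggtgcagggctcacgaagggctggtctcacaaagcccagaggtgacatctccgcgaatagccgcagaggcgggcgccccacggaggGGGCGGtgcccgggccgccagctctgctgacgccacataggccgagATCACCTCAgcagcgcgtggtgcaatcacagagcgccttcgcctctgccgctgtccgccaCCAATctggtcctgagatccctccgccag
Msmo1: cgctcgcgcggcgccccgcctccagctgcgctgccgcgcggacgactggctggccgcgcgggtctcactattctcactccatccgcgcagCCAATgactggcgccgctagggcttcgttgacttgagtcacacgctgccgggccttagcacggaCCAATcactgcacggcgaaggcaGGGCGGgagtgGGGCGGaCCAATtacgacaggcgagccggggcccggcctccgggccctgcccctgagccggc
Insig1: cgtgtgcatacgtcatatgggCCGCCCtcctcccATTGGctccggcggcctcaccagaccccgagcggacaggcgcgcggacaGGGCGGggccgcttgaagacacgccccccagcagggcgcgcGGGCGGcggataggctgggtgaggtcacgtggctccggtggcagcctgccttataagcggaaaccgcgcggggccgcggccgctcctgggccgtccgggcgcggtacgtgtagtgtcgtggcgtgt
Srebf2: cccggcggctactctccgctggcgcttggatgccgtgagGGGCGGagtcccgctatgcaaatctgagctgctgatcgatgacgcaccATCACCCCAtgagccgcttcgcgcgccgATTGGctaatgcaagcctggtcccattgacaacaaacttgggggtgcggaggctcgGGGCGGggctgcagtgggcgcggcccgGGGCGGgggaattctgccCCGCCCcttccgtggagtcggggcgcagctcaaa

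The windows are chr5:4104698-4104947 on the minus strand for Cyp51, chr8:64733579-64733828 on the minus strand for Msmo1, chr5:28071162-28071411 on the plus strand for Insig1 and chr15:82147019-82147268 on the plus strand for Srebf2. The motifs were CCAAT, the box bound by NF-Y, GGGCGG, the GC box bound by Sp1 factors, and TCACNCCAC, a form of the sterol regulatory element. CCAAT was found upstream of 7 of 7 members, against 33.8% of the 32851 promoters of the table, and GGGCGG upstream of 7 of 7 against 32.7%; for Dhcr7, with 3 windows, 1 match in any of them sufficed. TCACNCCAC was found in none of the members and in 1.05% of all promoters. Another form, ATCACCNCA, which is no less strict, was chosen after the sequences were seen, so its matches in the members are partly built in. It stands 89 bases upstream in Cyp51 and 163 bases upstream in Srebf2, in no other member, and in 0.645% of all promoters. Both sterol forms share letters and can match at the same place. A match is a description of letters, not of binding.

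Without DEN, 5 of the 7 genes stood at least 2-fold lower in the CA pool and none was higher by that much, where 0.592% of the expressed genes were lower and 0.661% higher by that rule. These 5 were all of the enzymes. The median difference of the 7 genes was -2.21, against 0.015 over all expressed genes.

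Msmo1, which encodes the oxidase that begins the removal of the paired methyl groups of the sterol ring, stood at a level of 12.18 with control diet, 8.51 with CA diet, 11.59 after DEN with control diet and 9.56 after DEN with CA diet. It was 12.7-fold lower on the CA diet without DEN and 4.08-fold lower after DEN. Both CA arrays lay below both control diet arrays. Only 4 of 11651 expressed genes, itself included, had a difference as low in either diet comparison. Its other probe set was near background (5.06, 4.01, 4.28 and 4.06 in the same order) and differed by -1.05 without DEN and -0.22 after DEN.

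Nsdhl encodes the dehydrogenase that follows in that removal. Its levels were 10.04, 7.28, 9.89 and 8.55 in the pools on control diet and on CA diet without DEN, and on control diet and CA diet after DEN. It was 6.78-fold lower on the CA diet without DEN and 2.53-fold lower after DEN. The CA arrays were again the lower ones, and the control diet arrays differed by 0.15.

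Hsd17b7 encodes the ketoreductase that completes the cycle of methyl removal. In the same order its levels were 9.97, 7.97, 9.66 and 8.28. The gene was 3.98-fold lower on the CA diet without DEN and 2.61-fold lower after DEN, the smallest and the second largest fold among the enzymes. Of its other 3 probe sets, those with means of 7.64 and 7.48 differed by -1.66 and -1.80 without DEN and by -0.99 and -1.10 after DEN. The last, with a mean of 3.63, lay under the expression limit on every array and differed by -0.76 and 0.27.

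Cyp51 encodes the demethylase that acts on lanosterol itself. Levels were 10.11 with control diet, 7.34 with CA diet, 10.37 after DEN with control diet and 9.18 after DEN with CA diet. The gene was 6.80-fold lower on the CA diet without DEN and 2.28-fold lower after DEN. Its other 2 probe sets gave differences of -3.35 and -1.84 without DEN and of -1.46 and -1.17 after DEN, so all 3 were called lower in both diet comparisons. The probe set at -1.84 ended at 4.66, under the expression limit.

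Dhcr7, the reductase gene of the final step to cholesterol, stood at 9.55, 7.34, 10.17 and 9.11 in the order used above. It was 4.63-fold lower on the CA diet without DEN and 2.09-fold lower after DEN. The latter lies just past the 2-fold rule. The array for DEN with control diet was the highest of the 4 for Dhcr7 and for Cyp51, while for Msmo1, Nsdhl and Hsd17b7 the control diet array without DEN was the highest.

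**Figure D1:**
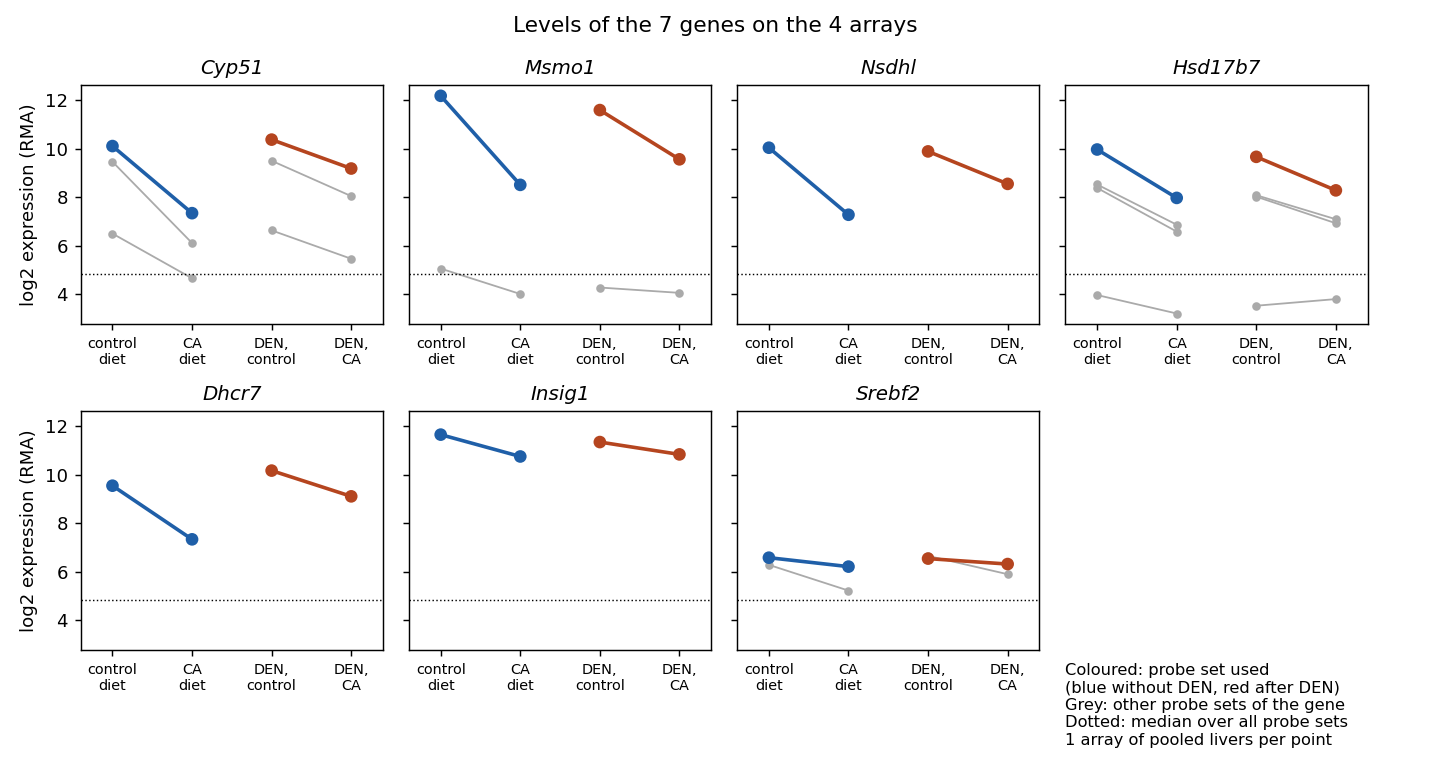
Log2 expression of the 7 genes on the 4 arrays, 1 array of pooled livers per point; coloured points are the probe set used, grey points the other probe sets, and the dotted line is the median over all probe sets, 4.86. Both CA diet points lie below both control diet points for each gene on the probe set used, with steep lines for the 5 enzymes (Msmo1 from 12.18 to 8.51 without DEN) and shallow ones for Insig1 and Srebf2.

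The control genes followed in the same direction by less than 2-fold on the probe sets used. Insig1, whose protein retains the SREBP escort in the membrane, had levels of 11.65 with control diet, 10.75 with CA diet, 11.35 after DEN with control diet and 10.84 after DEN with CA diet. The difference was -0.90 without DEN and -0.51 after DEN, both larger than that of any hybridization control. Poly-A controls, 27 probe sets, reached 0.64 without DEN and 0.59 after DEN, so that Insig1 passed them only without DEN. Of the expressed genes, 89 had a difference at or below that of Insig1 without DEN and 288 after DEN.

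Srebf2, the gene of SREBP2 itself, stood at 6.58, 6.22, 6.55 and 6.32 and differed by -0.37 without DEN and by -0.22 after DEN, the latter within the range of the hybridization controls. Both differences lay within the poly-A controls, which reached 0.64 and 0.59. The other probe set of Srebf2 stood at 6.29, 5.23, 6.66 and 5.90 and differed by -1.06 and -0.76. Between diets the probe sets thus disagree on size, not on direction; for DEN on the control diet they differ in sign as well (-0.038 and 0.37). With that probe set in place of the one of higher mean, a choice made after the values were seen, 6 of 7 genes were at least 2-fold lower without DEN.

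**Figure D2:**
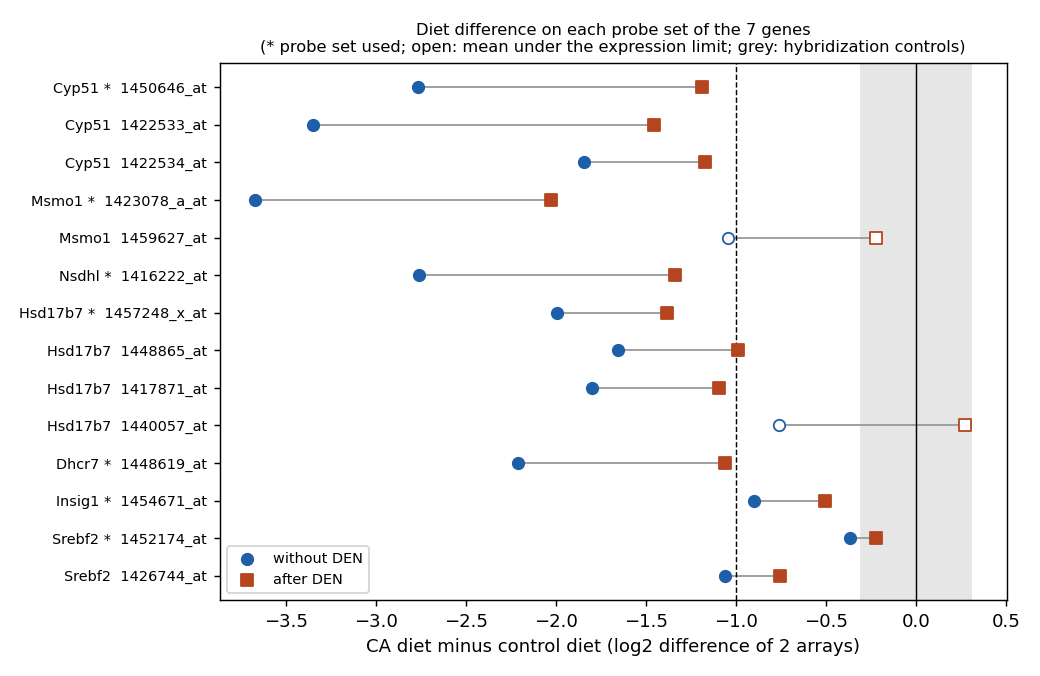
Log2 difference between CA diet and control diet without DEN (circles) and after DEN (squares) on each of the 14 probe sets of the 7 genes; the dashed line is 2-fold lower, open symbols are probe sets with a mean under the expression limit, and the grey band spans the largest hybridization control difference, 0.30, on both sides of 0. On 14 of 14 probe sets the circle lies further left than the square.

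After DEN, the CA diet went with differences in the same direction and of smaller size. Again 5 of 7 genes were at least 2-fold lower and none higher, against 0.472% and 0.266% of expressed genes, and the median difference was -1.19 (all expressed genes -0.022). With the mean over probe sets the count was 4 of 7, since Hsd17b7 then stood at -0.80. The 5 were again the enzymes; in all, 28 expressed genes (0.24%) passed 2-fold downward in both diet comparisons, which share no array. On the linear scale, the CA diet level without DEN was 7.86% of the control diet level for Msmo1, 14.7% for Cyp51 and for Nsdhl, 21.6% for Dhcr7 and 25.1% for Hsd17b7. After DEN the corresponding values were 24.5%, 43.8%, 39.6%, 47.9% and 38.4%, in that order of genes.

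**Figure D3:**
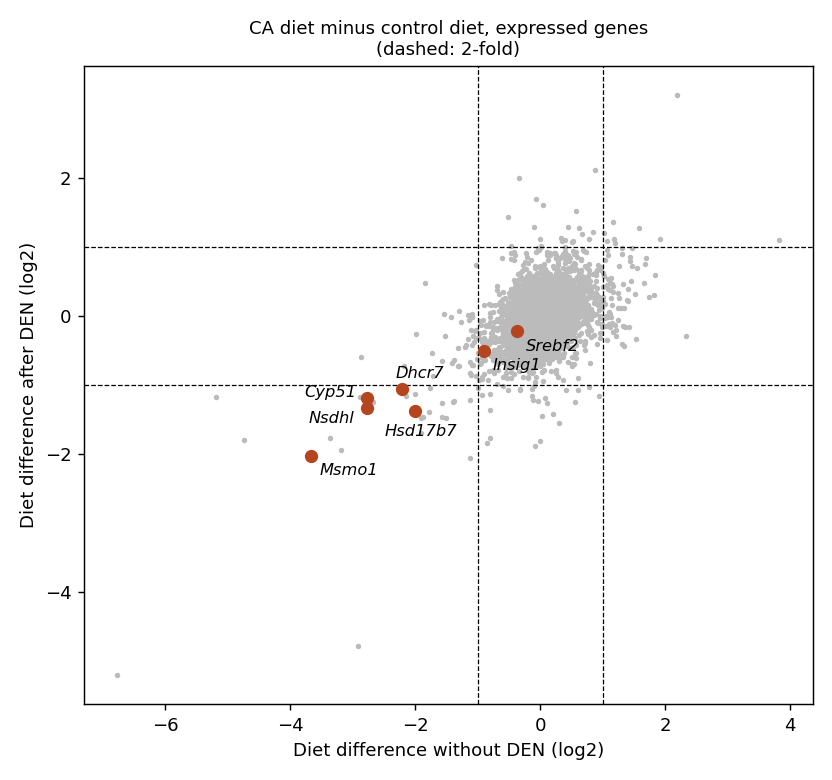
Difference between CA diet and control diet without DEN (horizontal) and after DEN (vertical) for each expressed gene, in log2, with dashed lines at 2-fold and the 7 genes in red. The 5 enzymes lie past 2-fold on both axes, Msmo1 furthest at -3.67 and -2.03, while Insig1 (-0.90 and -0.51) and Srebf2 (-0.37 and -0.22) lie inside the dashed lines.

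The difference between both diet effects was computed as the effect after DEN minus that without DEN, and it equals the DEN effect on the CA diet minus that on the control diet. It was above 0 for all 7 genes (median 1.15, all expressed genes -0.042) and at least 2-fold for 4 of 7, against 0.438% of expressed genes at least 2-fold higher and 0.73% lower. The 4 were Msmo1 (1.64), Cyp51 (1.57), Nsdhl (1.42) and Dhcr7 (1.15). Hsd17b7 stood at 0.61, Insig1 at 0.39 and Srebf2 at 0.14. The hybridization controls reached 0.57 in this quantity. The poly-A controls, whose RNAs are usually added before labelling, ran from -1.23 to 0.52 with a median of -0.60, the opposite sign to the 7 genes; their part in the result was not tested.

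The same pattern can be read as an order of levels. All 7 genes were lowest on the CA diet array without DEN and second lowest on the array for DEN with CA diet, an order found for 5.46% of expressed genes. The first of these statements holds for 14 of their 14 probe sets and for 22.3% of expressed genes, and the whole order for 13 of 14. The exception is the dim probe set of Hsd17b7.

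DEN without CA went with small differences. On the control diet 0 of the 7 genes differed 2-fold, against 0.901% of expressed genes lower and 5.12% higher (1.65% and 3.91% after median centring of the arrays). Dhcr7 was 1.54-fold higher, with Cyp51 at 0.27, and Msmo1 stood at -0.59, with Insig1 at -0.31, Hsd17b7 at -0.30, Nsdhl at -0.15 and Srebf2 at -0.038. The median was -0.15. The largest hybridization control difference was 0.20, which neither Nsdhl nor Srebf2 passed. Poly-A controls reached 0.57, which only Dhcr7 and Msmo1 passed.

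On the CA diet, the DEN pool was the higher one for all 7 genes (median 1.05), and 4 of 7 were at least 2-fold higher, against 4.75% of expressed genes higher and 1.75% lower. Cyp51 was 3.58-fold higher, Dhcr7 3.41-fold, Nsdhl 2.42-fold and Msmo1 2.07-fold. Msmo1 fell short of 2-fold with each array centred on its median (0.97) and with the mean over its probe sets (0.55), where the median of the 7 genes was 0.55 too. Hsd17b7 (0.31), Srebf2 (0.11) and Insig1 (0.086) stayed within the largest hybridization control difference, 0.37. Poly-A controls reached 0.71. This comparison uses an array of each diet comparison and is not independent of them.

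Against mice with neither treatment, the pool with DEN and CA diet was lower for all 7 genes (median -0.93). At least 2-fold lower were 3 of 7, Msmo1 (6.13-fold), Hsd17b7 (3.21-fold) and Nsdhl (2.81-fold), where 2.2% of expressed genes were lower and 5.97% higher. Cyp51 was 1.90-fold lower on the probe set used, and its other 2 probe sets differed by -1.42 and -1.04. Dhcr7 differed by -0.44, Insig1 by -0.81 and Srebf2 by -0.26. Poly-A controls reached 0.55, which Dhcr7 and Srebf2 did not pass.

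Markers of other cells moved beside these results. Macrophage markers were above 0 for 8 of 8 genes in both diet comparisons, with medians of 0.70 and 0.48; their mean level was 7.78 with control diet, 8.50 with CA diet, 8.37 after DEN with control diet and 8.95 after DEN with CA diet. Hepatocyte markers, 6 of 7 measured, had medians of 0.030 and 0.014 in the diet comparisons and mean levels of 13.85, 13.92, 13.74 and 13.67. With DEN their medians were -0.085 on control diet (4 lower, 2 higher) and -0.23 on CA diet (3 lower, 3 higher). The oncofetal genes Afp, Gpc3, Cd24a and Prom1 were at least 2-fold higher with DEN on either diet, 4 of 4, with medians of 5.44 and 5.04. Of all expressed genes, 5.12% were higher by that much on control diet and 4.75% on CA diet. Without DEN, Afp (4.77 and 4.10) and Gpc3 (4.14 and 4.41) lay under the expression limit, and Prom1 stood at 4.50 and 5.04. These genes count as expressed only through their DEN arrays, so those shares are no like measure for them. Over all measured markers, DEN on control diet and then on CA diet went with medians of 0.93 and 0.92 for 4 neutrophil genes. Medians were 0.82 and 0.54 for 6 dendritic or MHC class II genes, in the same order of diets. For 6 cholangiocyte genes they were 0.78 and 0.20, and for 3 erythroid genes -0.75 and -0.64. With DEN on control diet, Krt7 (-0.020) and Epcam (-0.049) were slightly lower. Krt19 (0.73), Cftr (0.82), Sox9 (1.31) and Tspan8 (7.69) were higher. Krt7, Krt19 and Cftr had means under the expression limit. Of the erythroid genes, Alas2 and Klf1 were lower with DEN on both diets. Slc4a1, under the limit, was higher (0.17 and 0.69). Expressed markers alone gave larger medians, such as 1.78 and 1.75 for neutrophil genes. Some of these, such as Tspan8 (3.69 and 3.92 without DEN) and S100a8 (3.71 and 4.82), passed the limit only through their DEN arrays. In livers measured whole, fewer cells of a type and less RNA per cell cannot be told apart, and the part of these cells in the members' differences was not tested.

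Other late enzymes differed less evenly. Of 5 listed genes 4 were measured. On the CA diet without DEN, Tm7sf2, a sterol reductase gene, differed by -1.58 and Sc5d, a desaturase gene, by -1.13, both past 2-fold, while Ebp, the isomerase gene, stood at -0.48 and Lbr, whose product is also a protein of the nuclear envelope, at -0.090. After DEN only Tm7sf2 (-1.27) passed 2-fold. Of all expressed genes, 0.592% were lower by that rule without DEN and 0.472% after DEN. Sc5d stood at -0.83, Ebp at -0.75 and Lbr at -0.028. None of the 4 reached 2-fold in the difference between the diet effects. That count says little where 0.438% of expressed genes were higher by that much and 0.73% lower. Tm7sf2 stood at 0.31, Sc5d at 0.30, Lbr at 0.062 and Ebp at -0.27, below the values of all 5 enzyme members. Of those members, Hsd17b7 (0.61) did not reach 2-fold either. Whether the 4 genes differ from the members was not tested.

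Enzymes before lanosterol resembled the members. Of 9 measured genes of 11 listed, 8 passed 2-fold downward with CA diet in mice without DEN and 7 after DEN, with medians of -2.15 and -1.18. The shares of all expressed genes were 0.592% and 0.472%. The difference between the diet effects was at least 2-fold higher for 4 of 9, against 0.438% of expressed genes: Sqle (4.01), Hmgcs1 (1.70), Fdps (1.59) and Idi1 (1.23). It was 0.21 for Fdft1, 0.41 for Lss and -0.10 for Mvk. The Sqle value involves a level of 4.69 on the CA diet, under the expression limit.

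Of genes that process SREBP or turn over INSIG, 10 of 11 were measured, with medians of 0.15 and -0.10 in the diet comparisons. The count past 2-fold was 0 of 10 in both, where 0.592% of expressed genes were lower and 0.661% higher without DEN, and 0.472% and 0.266% after DEN. Scap, the escort gene, stood at -0.58 and -0.36, and Srebf1, which encodes the SREBP of fatty acid synthesis, at 0.68 and 0.43. Insig2, the relative of Insig1, had levels of 10.14, 10.06, 11.12 and 11.52 in the order used above. It differed by -0.080 and 0.40 between the diets, and DEN went with differences of 0.98 with control diet and 1.46 with CA diet. Its other probe sets gave 0.90 and 0.76 for DEN with control diet and 1.43 and 1.05 with CA diet. For Insig1 the DEN differences were -0.31 and 0.086, so both INSIG genes showed different orders over the arrays: Insig1 was low on both CA arrays, and Insig2 was high on both DEN arrays.

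Of genes of sterol uptake and handling in the cell, 9 of 10 were measured and 8 expressed. Their medians were 0.024 and 0.033 in the diet comparisons, and 0 of 8 reached 2-fold, a count that says little where under 1% of all expressed genes were called in each direction. Mylip, a ubiquitin ligase gene of lipoprotein receptor turnover, stood at 0.15 and 0.18, Stard4, a sterol carrier gene, at -0.81 and -0.81, and Scarb1, the HDL receptor gene, at 0.63 and 0.33. Among 4 measured of 5 genes of LXR and sterol export, the exporter gene Abcg5 was 2.70-fold higher without DEN and differed by 0.80 after DEN, and Abcg8 stood at 0.75 and 0.70. In the fatty acid branch, 2 of 8 genes were at least 2-fold lower without DEN, Acss2 (-1.78) and Me1 (-1.03), and after DEN 1 of 8, Acss2 (-1.40). The shares of all expressed genes were 0.592% and 0.472%. Fasn stood at -0.29 and -0.60. Of 6 bile acid genes, Cyp7a1 and Cyp8b1 were at least 2-fold lower in both diet comparisons, against 0.24% of expressed genes. The differences were -2.91 without DEN and -4.78 after DEN for Cyp7a1, and -6.76 and -5.21 for Cyp8b1. These rest in part on levels under the expression limit: 4.80 for Cyp7a1 after DEN with CA diet, and 4.55 and 4.85 for Cyp8b1 on the CA diet arrays.

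**Figure D4:**
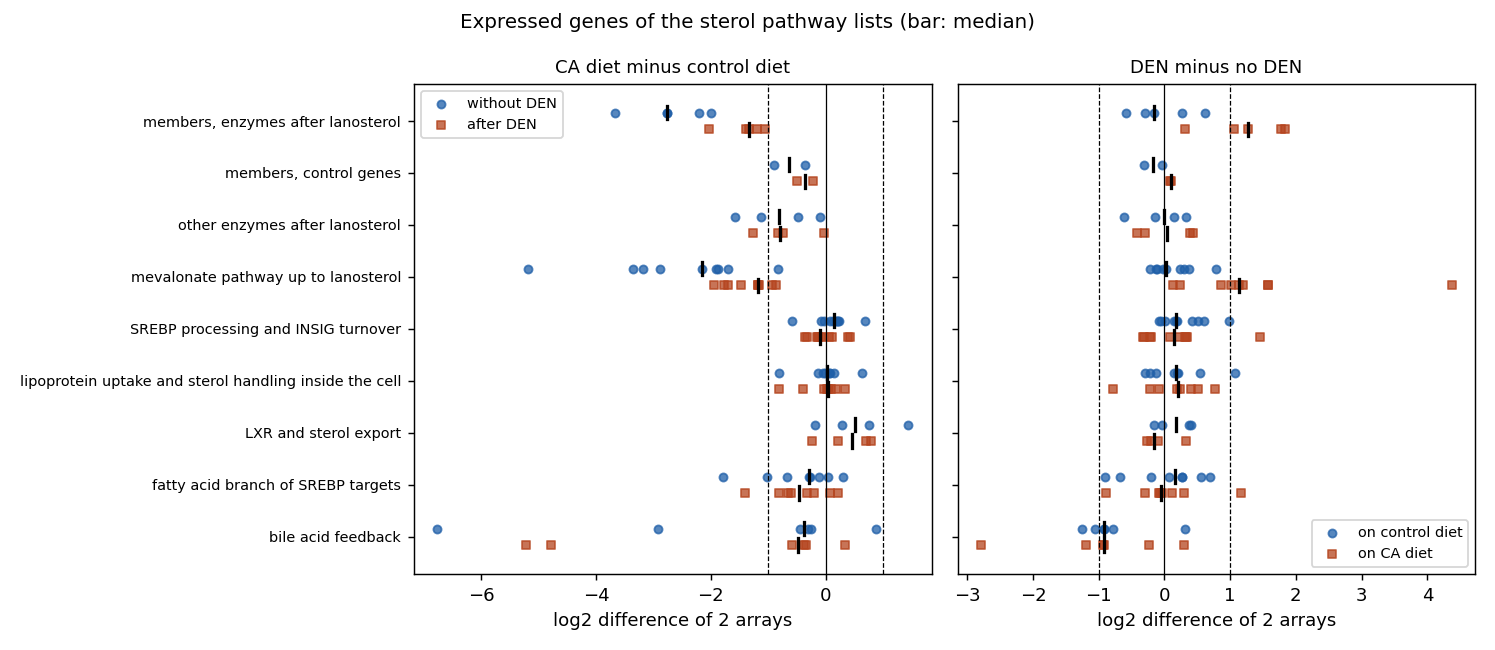
Log2 differences of the expressed genes of each list, left for CA diet minus control diet (circles without DEN, squares after DEN) and right for DEN minus no DEN (circles for control diet, squares for CA diet); bars are medians and dashed lines 2-fold. The enzyme members and the enzymes up to lanosterol lie to the left in the diet panel (medians -2.76 and -2.15 without DEN) and to the right for DEN on the CA diet (1.27 and 1.13).

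Likeness of pattern was measured as the Euclidean distance between the 4 log2 levels of a gene, after subtraction of their mean, and the average of these profiles over the 5 enzymes. Profiles were not scaled, so a gene with the same lowest arrays but smaller differences, such as Insig1 or Srebf2, lies further away. The 5 enzymes themselves lay at distances from 0.088 (Nsdhl) to 0.91 (Msmo1), with Insig1 at 1.58 and Srebf2 at 1.92. The enzymes are part of that average and the control genes are not, so the nearness of the enzymes is partly built in. The 8 nearest other expressed genes were Rdh11 (0.21), Hmgcs1 (0.24), Pmvk (0.47), Csad (0.52), Idi1 (0.57), Fdps (0.57), Lss (0.69) and Paqr9 (0.73). Of these, Rdh11 encodes a retinol dehydrogenase, Csad an enzyme of taurine synthesis and Paqr9 a membrane protein of the adiponectin and progestin receptor family. Nearest to Insig1 were Slc23a1 (0.087), Ctcflos (0.10), Uck1 (0.15) and Fermt2 (0.15). With 4 arrays such distances only describe these pools.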

How the data were processed

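RNA of pooled livers was hybridised to 1 Affymetrix mouse array per group. The deposited values are log2 expression values; the submitters' processing notes name RMA and Partek 6.5, and the sources used here do not give the options. RMA draws the distributions of arrays together, so a change of most genes one way would be lost. Array medians lay between 4.84 and 4.86.

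Of 45101 probe sets, 34958 carried 1 symbol in the platform annotation, which gave 18194 genes. A gene took its probe set of highest 4-array mean, and list genes that no such probe set names are not analysed here. Differences were subtractions of log2 values; a gene was called from 2-fold on. A fold is 2 to the power of the difference. Work was done in Python 3.11.15 with pandas 2.3.3 and statsmodels 0.14.6, and tested on simulated data. The 7 genes and all lists were chosen with earlier results of these data known. Named genes were the members, list genes past 2-fold in a diet comparison, up to 4 others per list, Insig2, Scap and Srebf1, and the genes nearest in pattern. Alternatives were quantile normalization, median centring, loess (fraction 0.3), the mean over probe sets, low values raised to the limit, a 1.5-fold rule, no filter and an upper quartile filter.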

Additional observations from a re-analysis of the deposited data

Results flagged for a closer look

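For 5 genes the DEN difference had opposite signs on the 2 diets, lower with DEN on the control diet and higher with DEN on the CA diet, and this was not tested. The share of all expressed genes with such a change of sign was not counted, so the number of genes alone says nothing particular about the members. The difference between both DEN effects was 1.64 for Msmo1, 1.42 for Nsdhl, 0.61 for Hsd17b7, 0.39 for Insig1 and 0.14 for Srebf2. On the control diet the differences of Nsdhl and Srebf2, and on the CA diet those of Hsd17b7, Insig1 and Srebf2, lay within the hybridization controls, so that Msmo1 alone passed them on both diets. For Srebf2 the opposite signs hold on 1 of its 2 probe sets; the other was higher with DEN on both diets (0.37 and 0.68).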

How the results depend on the processing

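No paired analysis was possible because each group has 1 array. Counts of called members under quantile normalization, median centring, loess, the mean over probe sets, raised low values, no filter and an upper quartile filter stayed within 1.5 times those reported. Loess was not run on the difference between the diet effects, and the upper quartile filter kept 6 members, without Srebf2. At 1.5-fold, DEN on the control diet had 1 member lower and 1 higher, and DEN with CA diet against neither had 5 lower. With the mean over probe sets, the members' median became 0.55 for DEN on the CA diet and -1.13 for DEN with CA diet against neither. Of single member differences, 10 of 42 moved beyond the largest hybridization control with that mean, which takes in dim probe sets (Msmo1 -2.36 between diets without DEN, Hsd17b7 -0.80 after DEN). One uncalled value changed sign there, Srebf2 for DEN on the control diet, from -0.038 to 0.17; no called value changed sign under the alternatives run. Over all expressed genes, 1.5-fold raised the counts 2.02 to 5.14 times, and the upper quartile filter lowered 7 of 12 below the range of 1.5 times. The mean over probe sets lowered higher calls for DEN on the control diet from 596 to 397 and lower calls for the difference of diet effects from 85 to 54; without a filter its higher calls went from 51 to 81. Median centring shifted the median of all genes from 0.035 to -0.13 for DEN on the control diet and from 0.012 to -0.11 for DEN with CA diet against neither. It turned the first from 596 higher and 105 lower to 455 and 192, the second from 696 and 256 to 593 and 347, and the difference of diet effects from 51 and 85 to 68 and 70.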
